A study of Homo sapiens with 4 samples.

Results

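The spindle checkpoint, kinetochore and cytokinesis genes are 38 genes, chosen by function and without the KIF kinesins, that carry cells from late G2 through the division of chromosomes and cytoplasm. They were taken by gene symbol from the 58812 genes in the count tables, and all 38 were found. CENPE, one of them, is also a kinesin. Their RNA was sequenced in wild type A549, an established human cell line from a lung carcinoma of epithelial origin. The cultures had received 1 µg of SAMD9-Myc-DDK, a plasmid for tagged SAMD9 (n = 2 libraries), or of the empty plasmid pCMV6-Entry (n = 2 libraries), and were taken 24 hr later. All 4 libraries are therefore from transfected cells, and no untransfected cells were analysed here. SAMD9 is an interferon-inducible antiviral protein, and the comparison asks how its overexpression alters the transcriptome.

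Before chromosomes separate, kinetochores assemble on centromeres and bind spindle microtubules. Unattached kinetochores hold the spindle checkpoint on, which keeps CDC20 from activating the anaphase-promoting complex. Once it is active, the complex marks securin for destruction and frees separase, after which the actomyosin ring divides the cell. In dividing lines such as A549 many of these genes, though not all, are transcribed mainly in G2 and mitosis. Their promoters often carry a TTTGAA element bound by the MuvB complex and CCAAT boxes bound by NF-Y. In RNA from a whole culture, fewer cells in G2 and mitosis and less of these RNAs per cell cannot be told apart.

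Library totals lay between 29301854 and 39670083 counts. SAMD9 itself had 220123 and 184350 counts in the SAMD9 libraries, against 444 and 400 in the empty vector libraries, which fits the labels. Of 10 lung epithelium and A549 markers, 8 were above 10 CPM (counts scaled to library size) in every library, among them KRT7, KRT8, KRT18 and ALDH1A1. EPCAM, with 159 to 216 counts, and KRT19, with 5 to 10, were low in this line. The summed epithelial markers reached 14254 to 14454 CPM with SAMD9 and 13714 to 14872 CPM with empty vector. Among them CLDN1 was at 305 and 330.1 CPM with SAMD9 and 169 and 152 CPM with empty vector, and CDH1 at 82.2 and 75.6 CPM with SAMD9 and 46.9 and 50.2 CPM with empty vector. The 6 leukocyte markers summed to 6.08 to 6.18 CPM with SAMD9 and 5.89 to 6.14 CPM with empty vector, with PTPRC at 0 to 3 counts, and the 5 endothelial markers stayed below 1 CPM in sum. The 7 fibroblast markers summed to 5.98 to 6.0 CPM with SAMD9 and 1.91 to 3.02 CPM with empty vector, with DCN at 0 in every library. That sum moved with the groups, mainly through COL1A1 (194 and 160 counts with SAMD9, 45 and 70 with empty vector). The part of these markers in the results below was not tested.

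The promoters below are examples of genes that fell, rose or did not pass the test, and do not represent those groups. Among genes that fell, NEK2, PTTG1 and SPC24 had a window without TTTGAA, while CENPN and ECT2, which did not pass, had the element. RefSeq gave a promoter window, from 250 bases before to 50 after a transcription start (GRCh38.p14), for 28 of the 38 genes. Each line runs 5′ to 3′ on the gene's strand. Capitals mark TTTGAA, its variant TTCGAA, and CCAAT, which appears as ATTGG where it lies on the other strand. Where TTTGAA runs into ATTGG, as in CDCA8, the 2 matches overlap. PLK1 (chr16:23678789-23678888, plus strand), CENPA (chr2:26785956-26786055, plus strand), CDCA8 (chr1:37692416-37692515, plus strand) and BUB1B (chr15:40160969-40161068, plus strand) are genes that fell with SAMD9. ESPL1 (chr12:53268199-53268298, plus strand) rose, and CENPK (chr5:65563169-65563268, minus strand) did not pass the test. Each of these shows the 100 bases before the start. BUB1 (chr2:110678054-110678083, minus strand), which rose, is shown from 20 bases before to 10 after its start, around its TTCGAA.
PLK1: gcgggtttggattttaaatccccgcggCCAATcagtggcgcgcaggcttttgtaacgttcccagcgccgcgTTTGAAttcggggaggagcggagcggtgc
CENPA: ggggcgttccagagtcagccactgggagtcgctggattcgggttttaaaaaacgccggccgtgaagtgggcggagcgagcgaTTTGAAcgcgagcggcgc
CDCA8: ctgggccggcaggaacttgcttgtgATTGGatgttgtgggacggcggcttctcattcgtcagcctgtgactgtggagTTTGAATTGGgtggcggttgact
BUB1B: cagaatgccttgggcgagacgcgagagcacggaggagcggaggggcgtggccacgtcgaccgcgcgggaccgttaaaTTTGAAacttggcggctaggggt
ESPL1: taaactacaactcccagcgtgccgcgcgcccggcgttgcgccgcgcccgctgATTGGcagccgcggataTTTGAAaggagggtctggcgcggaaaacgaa
CENPK: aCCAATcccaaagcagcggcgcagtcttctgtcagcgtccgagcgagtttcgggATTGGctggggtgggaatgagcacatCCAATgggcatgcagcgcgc
BUB1: cgactgcggctgcgcggggtaTTCGAAtcg

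With SAMD9, 28 of the 38 genes fell, 3 rose and 7 did not pass the test. Calls came from edgeR's quasi-likelihood test, with the Benjamini-Hochberg adjustment made over the 19814 genes that entered it and a threshold of 0.05. Of all genes tested, 12.2% were lower, 15.3% higher and 27.5% called in either direction. The median log2 fold change of the 38 was -0.32, a level 20.2% lower, against -0.01 over all genes tested. The falls were moderate, from 13.5% (PRC1) to 36.3% (CENPA), and none of the 38 reached a log2 fold change of 1 in size. All 38 passed the filter on low counts, with 281 to 16488 counts in a library.

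Both SAMD9 libraries lay below both empty vector libraries for 29 of the 38 genes, and above both for 3, while 6 overlapped. The same held for 30.9% and 31.1% of all genes tested. Scaled to library totals alone, the 38 genes together took 0.335% and 0.331% of counts with SAMD9, against 0.456% and 0.479% with empty vector. The empty vector libraries differed from each other in a common direction, since 31 of the 38 genes were higher in replicate 2 than in replicate 1, by a median of 0.08 on the log2 scale. Between the SAMD9 libraries 18 of 38 were higher in replicate 2, with a median of -0.03. Without SAMD9 replicate 1 or without SAMD9 replicate 2, 19 genes fell, and only 1, ESPL1, rose without SAMD9 replicate 2. Scaling by library totals in place of TMM (trimmed mean of M values) moved the median of all genes down by 0.19 (log2), and then 32 of the 38 fell and 0 rose. Over all genes, 2420 were lower and 3038 higher with TMM, against 5653 lower and 1974 higher under library-total scaling. The 18 genes that fell under all 9 settings run, main and alternative, were PLK1, AURKA, NEK2, BUB1B, MAD2L1, UBE2C, CENPA, KNL1, NUF2, CENPE, CENPF, INCENP, CDCA8, TOP2A, TPX2, ASPM, ANLN and RACGAP1.

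**Figure D1:**
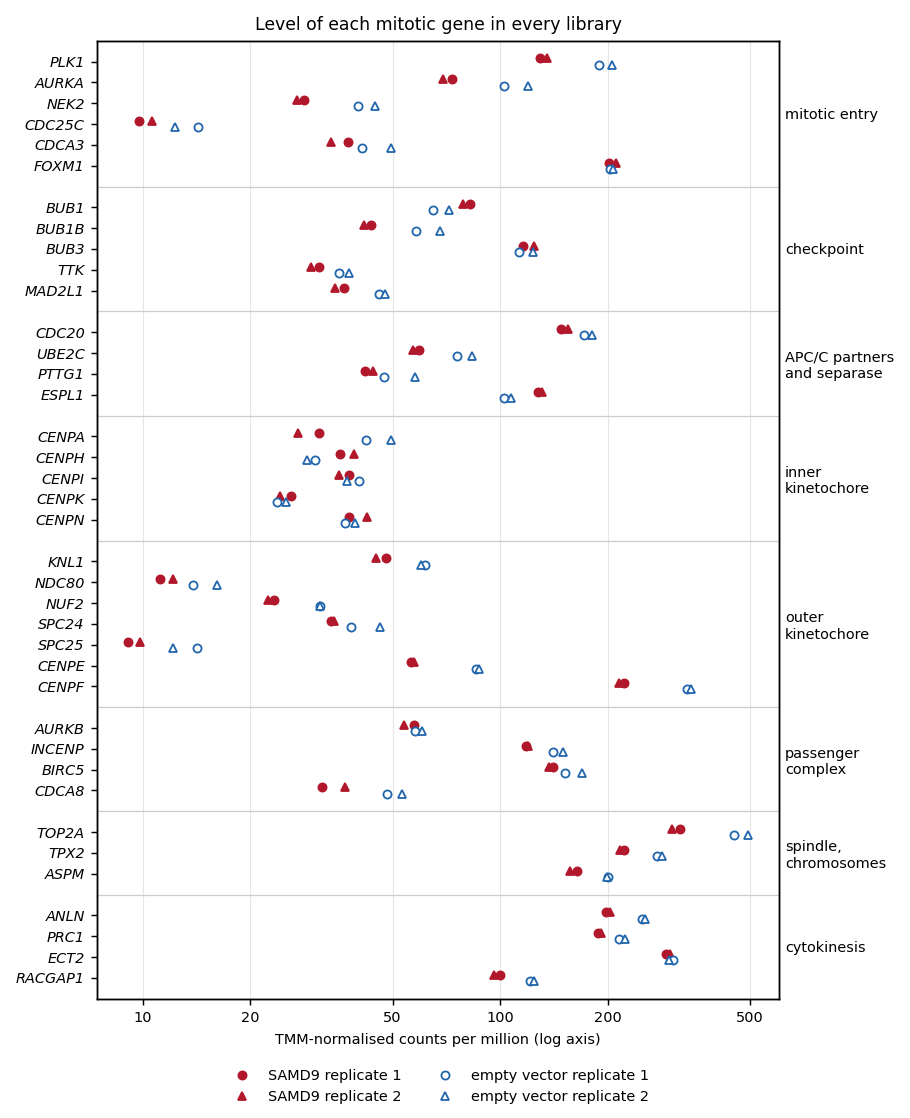
Level of each of the 38 genes in every library, in TMM-normalised CPM on a log axis, grouped by role, with filled symbols for SAMD9 and open symbols for empty vector. The SAMD9 symbols lie left of both empty vector symbols for 29 genes, and right of both for BUB1, ESPL1 and CENPH.

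Of the 6 kinases and regulators of mitotic entry, 5 fell and FOXM1 did not pass. PLK1, the kinase that drives centrosome maturation and mitotic entry (chromosome 16, 23677656 to 23690367, GRCh38), stood at 129 and 135 CPM with SAMD9, against 189 and 206 CPM with empty vector. All CPM levels here are TMM-normalised. PLK1 fell to 132 ± 3.99 CPM, against 198 ± 11.8 CPM with empty vector (SD, n = 2 each), which is -0.58 on the log2 scale (SE 0.06, adjusted p = 2.6e-07). AURKA, the kinase of centrosomes and spindle poles (chromosome 20, 56369389 to 56392337), was at 73.4 and 69.1 CPM with SAMD9 and at 103 and 119 CPM with empty vector. Its groups did not overlap, and its log2 fold change was -0.64 (SE 0.08, adjusted p = 8.0e-07). NEK2, a kinase that separates centrosomes, had a log2 fold change of -0.61 (SE 0.09).

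CDC25C, the phosphatase that activates CDK1, and CDCA3, an adaptor that promotes degradation of WEE1, fell by smaller amounts, -0.39 (SE 0.14) and -0.34 (SE 0.10). The CDC25C call (adjusted p = 0.0441) was lost without SAMD9 replicate 1 (0.248), SAMD9 replicate 2 (0.0825) or empty vector replicate 1 (0.263), with DESeq2 (0.181) and with no filter on low counts (0.0556). The CDCA3 call (adjusted p = 0.0115) was lost without SAMD9 replicate 2 (0.16) or empty vector replicate 2 (0.187), and 3 of the 6 genes in this role fell without SAMD9 replicate 2. FOXM1, the transcription factor that activates many G2 and mitotic genes, stood at 201 and 211 CPM with SAMD9, against 203 and 207 CPM with empty vector. Its libraries interleaved, and its log2 fold change was 0.01 with a 95% interval from -0.12 to 0.14 (adjusted p = 0.942). Under library-total scaling it was called lower, at -0.18 (adjusted p = 0.021). The exons of FOXM1 share 781 bases with ITFG2 on the opposite strand.

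Among the 5 spindle checkpoint genes, 3 fell, 1 rose and BUB3 did not pass. BUB1B, which encodes the BubR1 protein of the mitotic checkpoint complex (chromosome 15, 40161023 to 40221136), was at 43.4 and 41.5 CPM with SAMD9, against 58.1 and 67.9 CPM with empty vector. The log2 fold change was -0.57 (SE 0.09, adjusted p = 2.3e-05). MAD2L1, the checkpoint protein that captures CDC20 (chromosome 4, 120055608 to 120067074), was at 36.6 and 34.4 CPM with SAMD9 and at 45.8 and 47.7 CPM with empty vector, and its log2 fold change was -0.40 (SE 0.09, adjusted p = 0.00119). Both genes had groups that stood clear of each other. TTK, the kinase that starts checkpoint signalling at kinetochores, changed by -0.27 on the log2 scale (SE 0.09, adjusted p = 0.0326). Its call was lost without SAMD9 replicate 1 (0.0946), SAMD9 replicate 2 (0.278) or empty vector replicate 2 (0.146), and with DESeq2 (0.101).

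BUB1, the kinase related to BUB1B that recruits other checkpoint proteins to kinetochores (chromosome 2, 110637698 to 110678114), went the other way. It stood at 82.5 and 78.5 CPM with SAMD9, against 64.7 and 71.8 CPM with empty vector, and its log2 fold change was 0.24 (SE 0.08, adjusted p = 0.0211). The call was lost without SAMD9 replicate 1 (0.199), SAMD9 replicate 2 (0.0556) or empty vector replicate 1 (0.126), and under library-total scaling (0.05, adjusted p = 0.658). BUB3, the partner that brings BUB1 and BUB1B to kinetochores, was at 116 and 124 CPM with SAMD9, against 113 and 123 CPM with empty vector. Its libraries overlapped, at a log2 fold change of 0.02 with a 95% interval from -0.12 to 0.16 (adjusted p = 0.88).

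Of the genes that act at anaphase, CDC20, UBE2C and PTTG1 fell and ESPL1 rose. UBE2C, the ubiquitin-conjugating enzyme of the anaphase-promoting complex (chromosome 20, 45812576 to 45816957), was at 59.2 and 57.1 CPM with SAMD9, against 75.5 and 83.4 CPM with empty vector. Its log2 fold change was -0.45 (SE 0.08, adjusted p = 8.3e-05). ESPL1, which encodes separase, the protease that cuts cohesin (chromosome 12, 53268299 to 53293643), stood at 128 and 131 CPM with SAMD9 and at 103 and 107 CPM with empty vector. The rise of 0.30 (SE 0.07, adjusted p = 0.00132) was called with each library left out in turn, but under library-total scaling it was 0.11 (adjusted p = 0.2). CDC20, the activator of the complex, and PTTG1, which encodes securin, the inhibitor of separase, had log2 fold changes of -0.22 (SE 0.06, adjusted p = 0.0115) and -0.29 (SE 0.09, adjusted p = 0.0224). Their calls were lost without SAMD9 replicate 1 (0.201 for CDC20, 0.149 for PTTG1) or SAMD9 replicate 2 (0.0717 and 0.0519), so that only UBE2C fell there, and for PTTG1 also without empty vector replicate 2 (0.364) and with DESeq2 (0.0675).

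The inner kinetochore was the role with the fewest falls, 1 of 5. CENPA, the histone H3 variant that marks centromeres (chromosome 2, 26764289 to 26801067), fell to 31.1 and 27.2 CPM with SAMD9, against 42.3 and 49.5 CPM with empty vector. This was the lowest log2 fold change among the 38 genes, -0.65 (SE 0.10, adjusted p = 2.1e-05). CENPH, a subunit of the constitutive centromere network (chromosome 5, 69189548 to 69210357), rose to 35.6 and 39.1 CPM with SAMD9, against 30.3 and 28.9 CPM with empty vector. Its log2 fold change was 0.33 (SE 0.09, adjusted p = 0.0101), with the call lost without SAMD9 replicate 2 (0.167) and under library-total scaling (0.14, adjusted p = 0.249). CENPI, CENPK and CENPN, subunits of the same network, did not pass the test, and their libraries overlapped. CENPI was at 37.6 and 35.5 CPM with SAMD9, against 40.2 and 37.3 CPM with empty vector (log2 fold change -0.08, 95% interval -0.27 to 0.11, adjusted p = 0.564). CENPK was at 26.0 and 24.3 CPM with SAMD9, against 23.8 and 25.1 CPM with empty vector (0.04, -0.17 to 0.26, adjusted p = 0.822). CENPN was at 37.7 and 42.4 CPM with SAMD9, against 36.8 and 39.4 CPM with empty vector (0.07, -0.12 to 0.26, adjusted p = 0.638). Under library-total scaling CENPI was called lower (-0.27, adjusted p = 0.0215). CENPN shares 457 exonic bases with CMC2 on the opposite strand.

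All 7 outer kinetochore genes fell. CENPF, a large protein of the kinetochore's outer layer (chromosome 1, 214603195 to 214664588), was at 222 and 215 CPM with SAMD9, against 334 and 342 CPM with empty vector. It had the lowest adjusted p of the 38 genes, 1.1e-08, at a log2 fold change of -0.63 (SE 0.06). CENPE, the kinetochore motor that carries chromosomes to the spindle equator (chromosome 4, 103105806 to 103198409), was at 56.4 and 57.4 CPM with SAMD9 and at 85.7 and 87.2 CPM with empty vector. Its log2 fold change was -0.60 (SE 0.07, adjusted p = 7.4e-07). For both genes the replicates of a group lay close together and far from the other group. KNL1, the scaffold on which BUB1 and BUB1B gather, had a log2 fold change of -0.39 (SE 0.08).

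NDC80, NUF2, SPC24 and SPC25 form the 4-subunit complex that grips microtubules, and had log2 fold changes of -0.36, -0.45, -0.32 and -0.48 (SE 0.13, 0.10, 0.10 and 0.14). Per length, in deposited RPKM, SPC24 was at 11.2 ± 0.116 with SAMD9 and 15.8 ± 2.10 with empty vector, and NUF2 at 6.38 ± 0.22 with SAMD9 and 9.94 ± 0.00884 with empty vector (SD, n = 2 each). SPC25 was at 4.81 ± 0.218 RPKM with SAMD9 and 7.63 ± 0.872 with empty vector, and NDC80 at 3.03 ± 0.163 with SAMD9 and 4.43 ± 0.465 with empty vector. The order of the 4 RPKM levels was the same in each of the 4 libraries. RPKM is scaled to library totals and not by TMM, so falls look larger in it than in the log2 fold changes. With DESeq2, or without SAMD9 replicate 1, 4 of the 7 outer kinetochore genes fell, and NDC80, SPC24 and SPC25 were the calls lost, at adjusted p = 0.184, 0.059 and 0.0789 with DESeq2 and 0.264, 0.0996 and 0.103 without that library. Without SAMD9 replicate 2 the calls of NDC80 (0.0875) and SPC24 (0.0636) were lost. Without empty vector replicate 2 those 2 calls were lost as well (0.302 and 0.291), and without empty vector replicate 1 that of SPC25 (0.123). With no filter on low counts the NDC80 call was lost (0.0571).

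The chromosomal passenger complex places its kinase, AURKB, at centromeres and later at the midzone, and 3 of its 4 genes fell. CDCA8, which encodes the targeting subunit borealin (chromosome 1, 37692418 to 37709719), was at 31.6 and 36.7 CPM with SAMD9, against 48.3 and 53.2 CPM with empty vector, and its log2 fold change was -0.57 (SE 0.09, adjusted p = 4.5e-05). INCENP, the scaffold subunit (chromosome 11, 62123973 to 62153163), was at 118 and 119 CPM with SAMD9, against 141 and 149.7 CPM with empty vector, and its log2 fold change was -0.29 (SE 0.07, adjusted p = 0.00148). Neither gene's groups overlapped. BIRC5, which encodes survivin, changed by -0.21 on the log2 scale (SE 0.07, adjusted p = 0.0197), and its call was lost without SAMD9 replicate 1 (0.101), SAMD9 replicate 2 (0.2) or empty vector replicate 2 (0.157). AURKB stood at 57.4 and 53.7 CPM with SAMD9, against 57.7 and 60.6 CPM with empty vector, for a log2 fold change of -0.09 with a 95% interval from -0.25 to 0.07 (adjusted p = 0.448). Its 4 libraries lay close together. Under library-total scaling AURKB was called lower (-0.28, adjusted p = 0.00742).

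The 3 genes of spindle and mitotic chromosome structure fell. TOP2A, the topoisomerase that untangles sister chromatids (chromosome 17, 40388516 to 40417950), was at 318 and 303 CPM with SAMD9, against 450.3 and 493 CPM with empty vector. Its log2 fold change was -0.60 (SE 0.06, adjusted p = 4.1e-08). TPX2, which activates AURKA on spindle microtubules (chromosome 20, 31739271 to 31801805), was at 223 and 217 CPM with SAMD9 and at 274 and 284 CPM with empty vector, and its log2 fold change was -0.35 (SE 0.06, adjusted p = 8.6e-05). ASPM, a spindle pole protein, had a log2 fold change of -0.31 (SE 0.06). With CDC20, TPX2 and TOP2A were the highest of the 38 genes per length in the empty vector libraries. Their RPKM levels were 69.5 ± 1.66 with SAMD9 and 92.2 ± 3.0 with empty vector for CDC20, 57.0 ± 1.42 with SAMD9 and 82.6 ± 1.81 with empty vector for TPX2, and 45.1 ± 1.86 with SAMD9 and 78.1 ± 4.81 with empty vector for TOP2A (SD, n = 2 each). CDC25C and NDC80 were the lowest per length, CDC25C at 3.12 ± 0.171 RPKM with SAMD9 and 4.65 ± 0.491 RPKM with empty vector. These RPKM levels are likewise scaled to library totals and not by TMM, so falls look larger in them.

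Of the 4 cytokinesis genes, 3 fell and ECT2 did not pass. ANLN, which encodes anillin, the scaffold of the contractile ring (chromosome 7, 36389806 to 36453791), was at 198 and 203 CPM with SAMD9, against 250.2 and 254 CPM with empty vector, and its log2 fold change was -0.33 (SE 0.06, adjusted p = 1.5e-04). RACGAP1, part of the centralspindlin complex of the midzone (chromosome 12, 49976923 to 50033136), was at 100.1 and 96.4 CPM with SAMD9 and at 121 and 124 CPM with empty vector. Its log2 fold change was -0.32 (SE 0.07, adjusted p = 7.9e-04). PRC1, which bundles midzone microtubules, changed by -0.21 on the log2 scale (SE 0.06, adjusted p = 0.0118), and its call was lost without SAMD9 replicate 1 (0.158) or SAMD9 replicate 2 (0.118). ECT2, the exchange factor that activates RhoA at the cell equator, stood at 290.4 and 299 CPM with SAMD9, against 306 and 297 CPM with empty vector. Its libraries interleaved, at a log2 fold change of -0.03 with a 95% interval from -0.15 to 0.09 (adjusted p = 0.749), and it was called lower under library-total scaling (-0.22, adjusted p = 0.00363).

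Reads of some of these genes may be shared with others. Of the 31-base stretches of PRC1's transcripts, 55.3% also occur in other GENCODE 29 genes, as do 20.3% for CDC20, 17.5% for NEK2, 16.2% for AURKA, 11.6% for SPC25 and 10.6% for SPC24. For BUB1B the share was 9.12% and for PTTG1 7.68%, and it was 0 for ANLN, ASPM, BUB1, CDC25C, CENPE, INCENP, NUF2 and TOP2A. CDC25C shares 293 exonic bases with FAM53C and PRC1 406 with PRC1-AS1, and the exons of CDCA3 overlap those of GNB3, all on the opposite strand, and CENPA 138 with SLC35F6 on the same strand. Levels of these genes are uncertain to that extent.

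**Figure D2:**
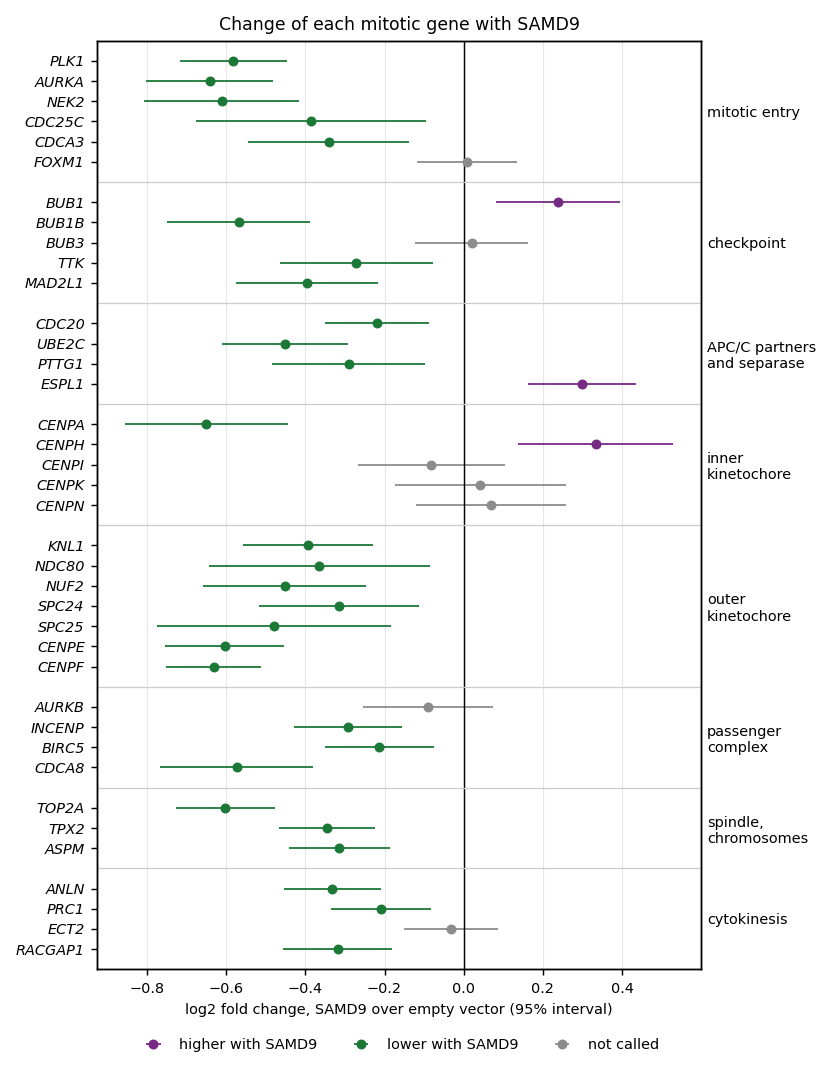
Log2 fold change of each gene, SAMD9 over empty vector, with its 95% interval, grouped by role and coloured by call. All 7 outer kinetochore genes lie left of 0, whereas 3 of the 5 inner kinetochore genes did not pass the test and CENPH lies right of 0. In the wider lists given below, 3 of 13 further outer kinetochore genes and 4 of 17 further centromere genes fell.

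Ratios of raw counts within a library do not depend on how libraries are scaled to each other. The 6 pairs below were chosen after their values were seen, so the ratios are given as a description, with no test. BUB1 had 1.90 and 1.89 times the counts of BUB1B with SAMD9, against 1.11 and 1.06 times with empty vector. ESPL1 had 3.05 and 2.97 times the counts of PTTG1, its inhibitor's gene, with SAMD9, against 2.17 and 1.86 times with empty vector. In both pairs the SAMD9 libraries lay above the empty vector libraries.

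AURKB had 0.782 and 0.777 times the counts of AURKA with SAMD9, against 0.561 and 0.507 times with empty vector. CENPH had 1.14 and 1.43 times the counts of CENPA with SAMD9, against 0.716 and 0.584 times with empty vector, so that the more abundant of these transcripts by count differed between the groups. FOXM1 had 1.55 and 1.57 times the counts of PLK1 with SAMD9, against 1.07 and 1.00 times with empty vector. ECT2 had 1.47 times the counts of ANLN in both SAMD9 libraries, against 1.22 and 1.17 times with empty vector. Each pair sets a gene that rose or was not called over one that fell, so the direction of these ratios follows from the choice. The ratios describe unequal change of the paired genes, and do not say that either gene kept its level.

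**Figure D3:**
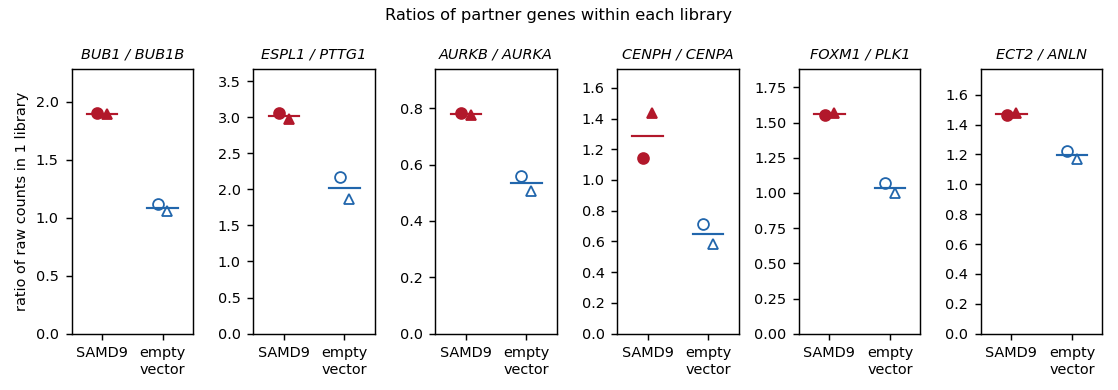
Ratio of raw counts of 6 gene pairs within each library, with SAMD9 on the left and empty vector on the right of each panel, points for libraries and a line for their mean. Each pair's SAMD9 libraries lie above its empty vector libraries, as for BUB1 over BUB1B at 1.90 and 1.89 against 1.11 and 1.06. The pairs were chosen after their values were seen, which fixed this direction.

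The promoter element TTTGAA, searched on both strands, occurred in the windows of 20 of the 28 genes that had one, or 71.4%, against 18.2% of the 27305 genes with a window. It was present in 17 of the 21 genes that fell, in ESPL1 of the 2 that rose (the other was BUB1), and in CENPN and ECT2 of the 5 that did not pass. In 16 genes it lay on the gene's strand from 50 bases before to 50 after the start, as at -29 in PLK1, -18 in CENPA, -23 in BUB1B and -31 in ESPL1, counted to its first base. A longer motif, GCGG followed by 4 bases of any kind and then TTTGAA, was found in CDC25C, CDCA3, CENPF and NUF2, which fell, and in 0.125% of all genes. TTCGAA was found in BUB1 and NDC80, against 1.82% of all genes. CCAAT was found in 22 of the 28, or 78.6%, against 39.7% of all genes: 16 of the 21 that fell, both that rose, and 4 of the 5 that did not pass. A match is a description of the sequence, not evidence of binding, and 4 of the 28 genes had more than 1 window, any of which could hold the match.

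Other genes of mitosis were read from 9 lists with 133 genes, all of which passed the filter. Of these 38 fell (28.6%) and 10 rose (7.52%), with a median log2 fold change of -0.09. The lists, like the 38 genes and their roles, were chosen with earlier results of these data known, so their shares are description only. Among all genes tested 12.2% were lower and 15.3% higher, and the counts of single lists stand beside those shares. Without SAMD9 replicate 1, 23 fell, without SAMD9 replicate 2, 24 fell and 5 rose, and under library-total scaling 80 fell and 5 rose. Under that scaling 60.2% of the 133 genes and 28.5% of all genes tested fell, and 3.76% and 9.96% rose. Single lists rest on few calls. Without SAMD9 replicate 1, 1 centromere, 0 checkpoint and 1 anaphase-promoting complex gene fell, without SAMD9 replicate 2 the counts were 2, 2 and 0, and without empty vector replicate 2 they were 1, 2 and 1. The other 6 lists moved by at most 2 calls in either direction with a library left out. Among 17 further centromere proteins 4 fell (23.5%) and 0 rose (median -0.15). HJURP, the chaperone that deposits CENPA, was at 64.4 and 69.5 CPM with SAMD9, against 106 and 124 CPM with empty vector, and its log2 fold change was -0.78 (SE 0.08, adjusted p = 4.7e-08). MIS18A, which licenses that deposition, had -0.41 (SE 0.13, adjusted p = 0.025), a call lost without SAMD9 replicate 1 (0.0902), SAMD9 replicate 2 (0.143), empty vector replicate 1 (0.052) or empty vector replicate 2 (0.0621), and with DESeq2 (0.12). Among 13 further outer kinetochore proteins 3 fell (23.1%) and 1, SKA1, rose, with a median of -0.005. Unlike the 7 outer kinetochore genes above, 9 of these 13 did not pass the test. SPDL1 was at -0.40 (SE 0.06) and KNSTRN at -0.35 (SE 0.09). The KNSTRN call was lost without SAMD9 replicate 1 (adjusted p = 0.0605). The SKA1 call (0.31, SE 0.09, adjusted p = 0.0132) was lost without SAMD9 replicate 2 (0.22) or empty vector replicate 2 (0.0544), and under library-total scaling (0.12, adjusted p = 0.32).

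Of 11 further checkpoint and entry proteins 4 fell (36.4%) and 2 rose (18.2%). MASTL, the Greatwall kinase that restrains the phosphatase PP2A in mitosis, rose to 171 and 188 CPM with SAMD9, against 51.0 and 47.1 CPM with empty vector. Its log2 fold change of 1.87 (SE 0.07, adjusted p = 2.5e-15) was the largest in size among the 38 genes and these lists. MASTL shares 443 exonic bases with YME1L1 on the opposite strand. MAD2L1BP, which helps to silence the checkpoint, rose by 0.53 (SE 0.13, adjusted p = 0.00309), a call lost without empty vector replicate 1 (0.0509).

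Among 17 subunits, partners and inhibitors of the anaphase-promoting complex 3 fell (17.6%) and 0 rose, a share of falls near the 12.2% of all genes tested. The complex's inhibitor FBXO5 was at -0.43 (SE 0.12) and its ubiquitin-chain enzyme UBE2S at -0.22 (SE 0.06). The FBXO5 call was lost without SAMD9 replicate 2 (adjusted p = 0.214), and the UBE2S call without SAMD9 replicate 1 (0.0682), SAMD9 replicate 2 (0.0868) or empty vector replicate 2 (0.179). Of 17 condensin and cohesin genes 3 fell (17.6%) and 2 rose (11.8%), also near the shares of all genes tested. The condensin subunits NCAPH2 and SMC4 were at 0.54 (SE 0.08) and -0.34 (SE 0.06). Among 19 further spindle proteins 9 fell (47.4%) and 0 rose, led by HMMR at -0.52 (SE 0.08) and TACC3 at -0.35 (SE 0.06). Among 14 further genes, most of them for cytokinesis, 5 fell (35.7%) and 2 rose (14.3%). CDCA2 and MKI67, which encode proteins of mitotic chromosomes rather than of cytokinesis, were among those that fell. The midbody protein CEP55 was at -0.40 (SE 0.07) and CDCA2 at -0.45 (SE 0.08).

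The DREAM and MuvB complexes, with E2F and NF-Y, switch mitotic promoters on and off. Of 18 genes in this list 1 fell (5.56%) and 2 rose (11.1%), LIN52 and CDKN1A, with a median of 0.05. Among all genes tested 12.2% were lower and 15.3% higher. Under library-total scaling 7 of the list fell (38.9%) and 1 rose (5.56%), beside 28.5% lower and 9.96% higher of all genes tested. LIN54, the MuvB subunit that binds TTTGAA, was at 26.0 and 24.5 CPM with SAMD9, against 35.1 and 31.2 CPM with empty vector (log2 fold change -0.39, SE 0.10, adjusted p = 0.00491), and its call was lost without SAMD9 replicate 2 (0.0723). LIN52, another MuvB subunit, rose to 18.3 and 18.7 CPM with SAMD9, against 9.01 and 10.5 CPM with empty vector (0.92, SE 0.13, adjusted p = 9.2e-06). Of 7 genes for mitotic cyclins, CDK1 and its CKS partners 6 fell (85.7%) and CKS1B rose. CCNF had a log2 fold change of -0.69 (SE 0.09) and CKS1B one of 0.56 (SE 0.07).

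Mitotic kinesins, which move chromosomes and spindle microtubules in the same phase, and DNA replication genes, which act in S phase, are given for comparison. Both lists were likewise chosen with earlier results of these data known. Of 12 mitotic kinesins 11 fell (91.7%) and 0 rose, with a median of -0.39, led by KIF14 at -0.80 (SE 0.08) and KIF23 at -0.58 (SE 0.06). Of 28 DNA replication genes 0 fell and 10 rose (35.7%), with a median of 0.13, led by GINS1 at 0.53 (SE 0.07) and PCNA at 0.45 (SE 0.06). Among all genes tested 12.2% were lower and 15.3% higher. For the replication genes 5 rose without SAMD9 replicate 1, 3 rose without SAMD9 replicate 2, and 5 rose and 1 fell without empty vector replicate 1. Under library-total scaling 3 rose (10.7%) and 5 fell (17.9%), whereas 12 of the 12 kinesins fell. Of all genes tested 9.96% rose and 28.5% fell there, with a median of -0.19 against -0.06 for the replication genes. The direction of the replication calls thus depended on the scaling, while the median of the list lay above that of all genes under both scalings. Whether the 38 genes differed from either group was not tested.

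**Figure D4:**
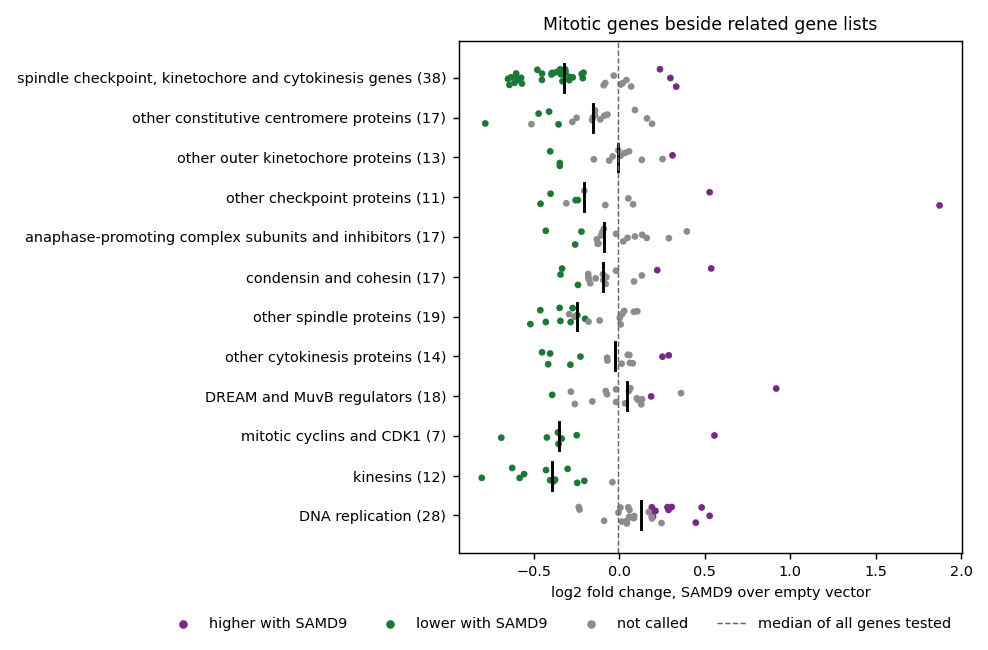
Log2 fold change, SAMD9 over empty vector, of every gene in the 38-gene set (top) and in 11 related lists, coloured by call, with a black line at each median and a dashed line at the median of all genes tested. The median lies at -0.32 for the 38 genes, -0.39 for kinesins and 0.13 for DNA replication genes, and MASTL stands alone at 1.87.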

How the data were processed

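Each library had a deposited table that gave raw counts for every gene, beside CPM and RPKM values computed by the authors. The deposited CPM equalled counts scaled to the library total, and RPKM equalled CPM per kilobase of listed gene length. The submitters' processing notes name STAR 2.5.1a, featureCounts 1.4.6-p5 (Subread), bcl2fastq and build GRCh38. The strand setting and annotation release were not given in the sources used here. RNA was ribosomal-depleted, per the labels' protocols.

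Counts were tested with edgeR 4.0.16 (R 4.3.3): filterByExpr (minimum count 10, minimum total 15, 19814 genes kept), TMM, glmQLFit and glmQLFTest on SAMD9 against empty vector without covariates. Factors were 0.941 and 0.932 with SAMD9 and 1.07 and 1.07 with empty vector. Each SE was taken from the log2 fold change and its F statistic (size over root F), and 95% intervals follow from it. On simulated counts with the common dispersion, 72% of genes set to 0.7-fold were called and 0.0209% of unchanged ones. The simulation gave every gene the same dispersion and changed only 50 well-covered genes per fold. In the data 27.5% of genes tested were called, so these rates need not carry over. An exact permutation test of 2 against 2 libraries cannot give a two-sided p below 0.333. Nothing in the labels says that the replicates came from separate cultures, and the p-values may then rest on technical spread among libraries alone. Replicates were not copies (chi-square per degree of freedom 5.00 for SAMD9 and 9.35 for empty vector).

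Gene IDs were matched to symbols by a table of names. Genes, roles and lists were chosen with earlier results of these data known. Full values are given for the 2 genes of each role with the lowest p, those called against the majority and those not called. In each list the 2 genes with the lowest p are named, most by log2 fold change and SE only. Alternatives were library-total scaling, DESeq2 1.42.0, no filter, a replicate block and leaving out each library.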

Additional observations from a re-analysis of the deposited data

How the results depend on the processing

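The count of the 38 genes that fell was 28, and between 19 and 26 with a library left out, 22 with DESeq2, 26 without a filter and 32 under library-total scaling. The count that rose was 3, and between 1 and 3 with a library left out and 0 under library-total scaling, where the median log2 fold change was -0.51. FOXM1 turned to -0.18 and CDKN1A to -0.0023 there, since that scaling lowers every log2 fold change by about 0.19. It called 5653 of all genes lower and 1974 higher, against 2420 and 3038 with TMM. Of the related mitotic genes 80 fell and 5 rose under that scaling, and of DNA replication genes 5 fell and 3 rose. With a library left out, 1466 (without SAMD9 replicate 2) to 2279 of all genes fell, 23 to 40 related genes fell and 5 to 11 rose, and 0 to 1 replication genes fell and 3 to 15 rose. DESeq2 called 1637 of all genes lower and 2456 higher. With the replicate number as a block, 28 of the 38 genes fell and 3 rose, and 2330 of all genes fell and 2914 rose, and the CDKN1A call was lost (adjusted p = 0.0514). The numbers are not known to pair cultures: the deviations of same-numbered libraries had a correlation of -0.03 over 10315 genes.

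Depth limited the least abundant genes, CDC25C, NDC80 and SPC25, with 281 to 539 counts and SE of 0.13 to 0.14.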

Other observations

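Some genes used as readouts of proliferation or of its arrest, chosen after their values were seen, are given as values. MKI67, the Ki-67 antigen gene, was at 686 and 726 CPM with SAMD9, against 790.0 and 861 CPM with empty vector (log2 fold change -0.23, SE 0.06, edgeR adjusted p = 0.00395), a call lost without SAMD9 replicate 1 (0.126). CDKN1A, which encodes the CDK inhibitor p21, was at 173 and 184 CPM with SAMD9, against 163 and 151 CPM with empty vector (0.19, SE 0.06, adjusted p = 0.0355). The CDKN1A call was lost without SAMD9 replicate 1 (0.0729), SAMD9 replicate 2 (0.351) or empty vector replicate 2 (0.113), and under library-total scaling its log2 fold change was -0.0023 (0.982). MYBL2, the B-Myb gene that acts with MuvB and FOXM1, was at 225 and 219 CPM with SAMD9, against 218 and 232 CPM with empty vector (-0.02, SE 0.06, adjusted p = 0.875), and it was called lower under library-total scaling (-0.21, adjusted p = 0.00939). SGO1 and SGO2, which protect centromeric cohesin, are not such readouts. They belong to the checkpoint list above and were likewise chosen after their values were seen. Their log2 fold changes were -0.46 (SE 0.14, edgeR adjusted p = 0.0176) and -0.40 (SE 0.11, adjusted p = 0.0103). Both calls were lost without SAMD9 replicate 1 (0.094 for SGO1, 0.107 for SGO2) or empty vector replicate 2 (0.292 for SGO1, 0.193 for SGO2), and that of SGO1 with DESeq2 (0.0843).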
